A study of Mus musculus with 3 samples.

Results

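Paneth-like cells of conventional ENR organoids were defined by their alpha-defensin transcripts. A cell was a member when genes with symbols starting with Defa made up at least 8% of its UMIs, among cells of at least 1000 and fewer than 8000 UMIs and at least 400 detected genes. A UMI is a molecular tag that marks 1 captured transcript. The rule found 271 members among 2545 kept ENR cells, a share of 10.6% (95% Clopper-Pearson interval 9.48 to 11.9%). The 3 libraries of the series together held 5913 kept cells.

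The study grew crypts from the proximal small intestine of C57BL/6 mice of both sexes, 3 to 6 months old, as organoids in Matrigel. A stem cell-enriched precursor culture of 6 days in EGF, Noggin and R-spondin 1 with CHIR99021 and valproic acid came first, and each group then spent 6 days in its own medium. ENR held EGF (50 ng/mL), Noggin (100 ng/mL) and R-spondin 1 (500 ng/mL), ENR+CD added the Wnt activator CHIR99021 (3 µM) and the Notch pathway inhibitor DAPT (10 µM), and ENR+CV added CHIR99021 (3 µM) and valproic acid (1 mM), a histone deacetylase inhibitor. All 3 groups share the precursor culture, whose first days included the rho kinase inhibitor Y-27632 (10 µM). Each group was 1 Seq-Well array, a plate of nanowells that pairs single cells with barcoded beads, loaded from 6 wells of 1 donor. With 1 library per condition no test between groups could be made, cells are not replicates, and all intervals cover counting error only.

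Paneth cells (PCs) sit at the base of small intestinal crypts between the stem cells. They fill granules with alpha-defensins, lysozyme and other antimicrobial proteins, release them into the crypt lumen, and supply the neighbouring stem cells with Wnt and Notch ligands. They arise from the same secretory progenitors as goblet cells, which make mucus, and enteroendocrine cells (EECs), which make hormones.

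Alpha-defensin content varied continuously across the library. The Defa share had a median of 0.909% over all kept ENR cells. Among members it averaged 16.0% (SD 7.48 over cells) with a median of 13.8% and a maximum of 44.4%. The share did not separate members from the rest by a gap, since 46 cells lay just outside the threshold at 7 to 8% and 35 just inside at 8 to 9%. Of the members, 104 had 8 to 12%, 103 had 12 to 20% and 64 had 20% or more. Members held 59.2% of the Defa UMIs of the kept ENR cells and 10.3% of all their UMIs, so a large part of the alpha-defensin signal lay in cells that the rule left out.

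**Figure D1:**
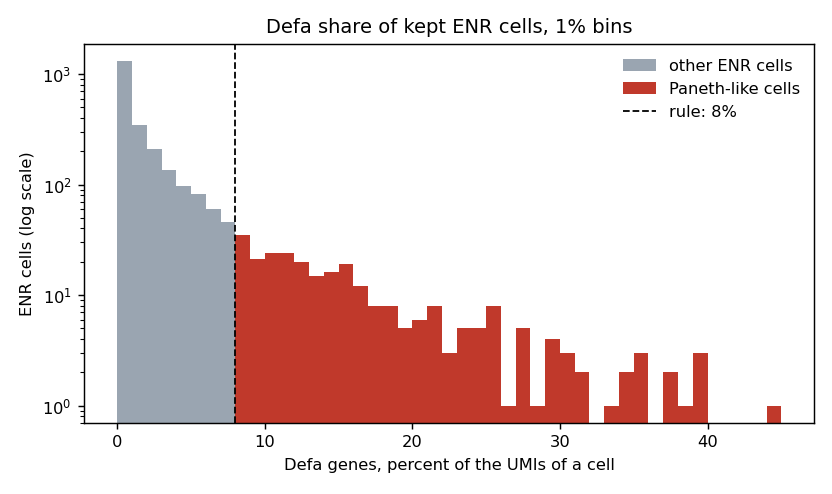
Number of kept ENR cells (log axis) in each 1% bin of Defa share, with the 271 Paneth-like cells in red, the 2274 other ENR cells in grey and the 8% rule as a dashed line. Counts decline without a gap at the rule, with 46 cells in the bin just below it and 35 just above.

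Total depth was close between members and the other ENR cells, while gene number was not. Members had a median of 1609 UMIs and 719 genes per cell, against 1549 UMIs and 840 genes in the other cells. Without the Defa genes the medians were 1334 and 1521 UMIs, and after thinning every cell to 500 Defa-free UMIs they were 323 and 351 genes. Mitochondrially encoded genes took on average 13.6% of the Defa-free UMIs of a member (SD 7.09) and 17.8% of those of another cell (SD 9.60). The part of gene number and mitochondrial share in the results below was not tested. No member shared its barcode with a cell of another library.

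Because the rule used the Defa genes, their levels in members are a description. Defa24, the alpha-defensin with most UMIs, gave 60874 UMIs in members (68.9% of their Defa UMIs) and was found in 100% of them. Defa17 followed with 21999 UMIs (24.9%), again in 100% of members. Other Defa genes were minor in count: Defa26 gave 822 UMIs, Defa3 813, Defa21 747, Defa22 682, Defa23 319 and Defa-rs7 170. Defa22, 1 of the PC markers given for these cells, was found in only 59.8% of members.

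The make-up of the alpha-defensin pool was close inside and outside the members. In the other ENR cells Defa24 held 69.3% and Defa17 25.2% of Defa UMIs, and in enterocyte-rich cells (the 10% of other ENR cells, 227 in number, with most of their Defa-free UMIs on a list of enterocyte genes) they held 69.7% and 24.4%. Defa24 was found in 92.4% of the other ENR cells. Per 1000 Defa24 UMIs, members held 361 UMIs of Defa17, 129 of Itln1 and 98.4 of Lyz1, and enterocyte-rich cells held 350, 135 and 131. Other products lay further apart. The 2274 other ENR cells together held 341 Spink4, 162 Tff3, 22.5 Mmp7 and 1.59 Mptx2 UMIs per 1000 Defa24 UMIs, against 176 (Spink4), 63.0 (Tff3), 14.8 (Mmp7) and 4.50 (Mptx2) in members. The part of free RNA in these values was not tested.

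Paralogs limit how far single alpha-defensins can be told apart. In the annotated transcripts, 92.0% of 50-base windows of Defa17 also occur in another gene, all of them in Defa3, and the value was 28.1% for Defa24, 74.9% for Defa22, 72.9% for Defa21 and 94.8% for Defa23. The files give 13 symbols starting with Defa and 15 further predicted alpha-defensins under other names, of which 13 carry a RefSeq symbol starting with Defa, such as Gm15284 (Defa30) and Gm14851 (Defa38). Of these genes 18 were placed in 1 cluster on chromosome 8 (GRCm38), from 20943694 to 21735471. Values for a single alpha-defensin are therefore uncertain, and the predicted genes, which share sequence with the Defa genes, are not independent of the rule.

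The promoters of 2 alpha-defensins, of lysozyme and of a pentraxin are shown as examples of PC genes, for a reading of the letters before their starts. Summed levels of Lyz1 and Mptx2 were higher in members, whereas Defa22 is part of the rule and Gm15284 is not independent of it. Each sequence is the 250 bases before the RefSeq gene start (GRCm38.p6), read 5′ to 3′ on the strand of the gene, with matches in capitals to CTTTGAT on either strand (in reverse ATCAAAG), a core that binds TCF/LEF factors of the Wnt pathway. Defa22 lies at chr8:21162027-21162276 on the plus strand, Gm15284 (Defa30) at chr8:21134400-21134649 on the plus strand, Lyz1 at chr10:117292869-117293118 on the minus strand and Mptx2 at chr1:173277757-173278006 on the minus strand.
Defa22: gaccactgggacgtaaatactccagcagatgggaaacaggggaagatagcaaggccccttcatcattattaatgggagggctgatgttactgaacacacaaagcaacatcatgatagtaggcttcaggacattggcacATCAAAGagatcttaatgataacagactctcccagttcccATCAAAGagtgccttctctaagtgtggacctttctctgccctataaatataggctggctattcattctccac
Gm15284: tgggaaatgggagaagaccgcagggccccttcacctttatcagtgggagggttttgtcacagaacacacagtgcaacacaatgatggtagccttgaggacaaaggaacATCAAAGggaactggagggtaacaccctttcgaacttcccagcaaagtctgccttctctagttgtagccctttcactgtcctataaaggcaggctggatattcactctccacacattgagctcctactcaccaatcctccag
Lyz1: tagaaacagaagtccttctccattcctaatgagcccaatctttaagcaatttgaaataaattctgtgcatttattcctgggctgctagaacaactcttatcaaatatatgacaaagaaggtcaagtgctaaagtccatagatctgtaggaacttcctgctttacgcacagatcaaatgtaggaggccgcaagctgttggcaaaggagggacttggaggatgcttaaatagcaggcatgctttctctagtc
Mptx2: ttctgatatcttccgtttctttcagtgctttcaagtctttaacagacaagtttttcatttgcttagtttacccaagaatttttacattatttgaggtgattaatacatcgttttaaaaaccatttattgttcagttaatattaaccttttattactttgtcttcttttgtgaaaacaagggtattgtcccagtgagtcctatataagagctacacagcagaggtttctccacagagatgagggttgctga
Defa22 has 2 matches, whose first bases lie 112 and 72 bases before the start, and Gm15284 has 1 at 142 bases. Over the 17 alpha-defensin promoters with a RefSeq entry, 13 (76.5%) held CTTTGAT and 9 held it at least 2 times, against 3.21% and 0.0822% of all 32851 promoters. These promoters belong to paralogs and are not independent of each other. Defa24 and Defa17, which gave most of the Defa UMIs, are not among the 17, and 1 of the 17, Defa32, was not among the genes counted here. The related core CTTTGAA (either strand) was in 0 of the 17 and in 4.46% of all promoters, and the E-box CAGCTG, a core for basic helix-loop-helix factors, was in 1 of 17 and in 13.0%. Among 142 promoters of 115 other genes that stood higher in members, CTTTGAT was in 5 (3.52%), CTTTGAA in 8 (5.63%) and CAGCTG in 23 (16.2%), close to the shares over all promoters. A match is a run of letters and not a shown binding site.

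With the Defa genes removed, members stood apart from the other ENR cells by predicted alpha-defensins and by other antimicrobial and secretory genes. Levels here are UMIs summed over a set of cells per 1000000 Defa-free UMIs (CPM), and a gene is called higher or lower here when the levels differ by at least 2-fold, the exact Poisson 95% intervals are separate and both sets together hold at least 20 UMIs. Of 10763 genes compared, 156 (1.45%) were higher and 206 (1.91%) lower in members, with a median log2 ratio of -0.22 over all of them. The 156 include 14 predicted alpha-defensins, which are not independent of the rule. Counts over all genes given below also include predicted alpha-defensins. Of 21 measured antimicrobial genes other than defensins 17 reached the UMI minimum, of which 12 were higher and 0 lower, with a median log2 ratio of 2.46. Of 14 other secreted and processing genes compared, 10 were higher and 0 lower (median 2.44).

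Lyz1, the lysozyme gene by which PCs are usually identified, stood at 13669 CPM in members (13325 to 14020) and 1147 CPM in the other ENR cells (1116 to 1178). The ratio was 11.9 (11.5 to 12.4). It was 30.7 against ENR cells under 2% Defa alone and 18.2 without the upper UMI and the gene number limits on cells. Its share of the Defa-free UMIs of a cell had a median of 0.787% in members and 0.0312% in the others, and 3.08% of the other cells lay above the member median. Of the 50-base windows of Lyz1, 16.1% also occur in its relative Lyz2. Lyz2, otherwise known from macrophages, stood at 365 against 21.3 CPM, a ratio of 17.1, and 15.4% of its windows occur in Lyz1. The macrophage genes Tyrobp, Csf1r and Cd68 had 0 UMIs in members. They had only 0, 3 and 10 UMIs in the other ENR cells, too few to tell the groups apart. Of the 14 measured immune genes only Itgam (13 UMIs), H2-Ab1 (2) and Fcer1g (1) had UMIs in members beside Lyz2.

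Itln1, an intelectin that binds microbial glycans, stood at 17916 against 1149 CPM (ratio 15.6, interval 15.1 to 16.2). The lectin gene was detected more evenly over members than Lyz1, in 98.2% of them. Ang4, an angiogenin with microbicidal activity, stood at 4597 against 321 CPM (14.3, 13.4 to 15.3), and its relative Ang5 at 132 against 6.21 CPM (21.3, 13.4 to 34.8). Within the same list Reg4, Reg3b and Reg3g, C-type lectin genes, were not called, at ratios for Reg4 of 1.29 (1536 against 1187 CPM), for Reg3b of 1.67 and for Reg3g of 1.37.

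Genes that process or accompany granule proteins moved with the antimicrobials. Mmp7, the protease that activates alpha-defensins in mice, stood at 2052 against 211 CPM (ratio 9.73, 8.87 to 10.7). Clps, pancreatic colipase, stood at 5585 against 445 CPM (12.6) and Pnliprp2, a lipase-related protein, at 331 against 43.3 CPM (7.65). Spink4, a protease inhibitor made by goblet cells and PCs, was at 24521 against 3188 CPM (7.69), and the chemokine gene Ccl6 at 484 against 48.4 CPM.

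Mptx2, a mucosal pentraxin of mouse PCs, had the largest called ratio of the genes compared and was the most uneven of 9 PC and goblet products counted per member. Its level was 625 CPM in members (554 to 704) against 14.9 CPM in the other cells, a ratio of 42.1 (32.1 to 55.8). Only 24 members (8.86%) held any Mptx2 UMI, and the 4 highest held 71, 58, 45 and 37 of the 274. These 4 cells held 85, 7, 8 and 62 Lyz1 UMIs, out of 3315, 7493, 2266 and 3048 UMIs in all. The next member, with 14 Mptx2 UMIs, held 118 Lyz1 UMIs out of 2109. The 24 members with Mptx2 were deeper (median 2259 UMIs against 1570) and higher in Defa share (18.5% against 13.3%) than the 247 without, and stood at 27823 against 16742 CPM for Itln1 and 15936 against 13400 CPM for Lyz1. The paralog Mptx1 stood at 173 against 9.32 CPM in members against the other cells (18.6).

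**Figure D2:**
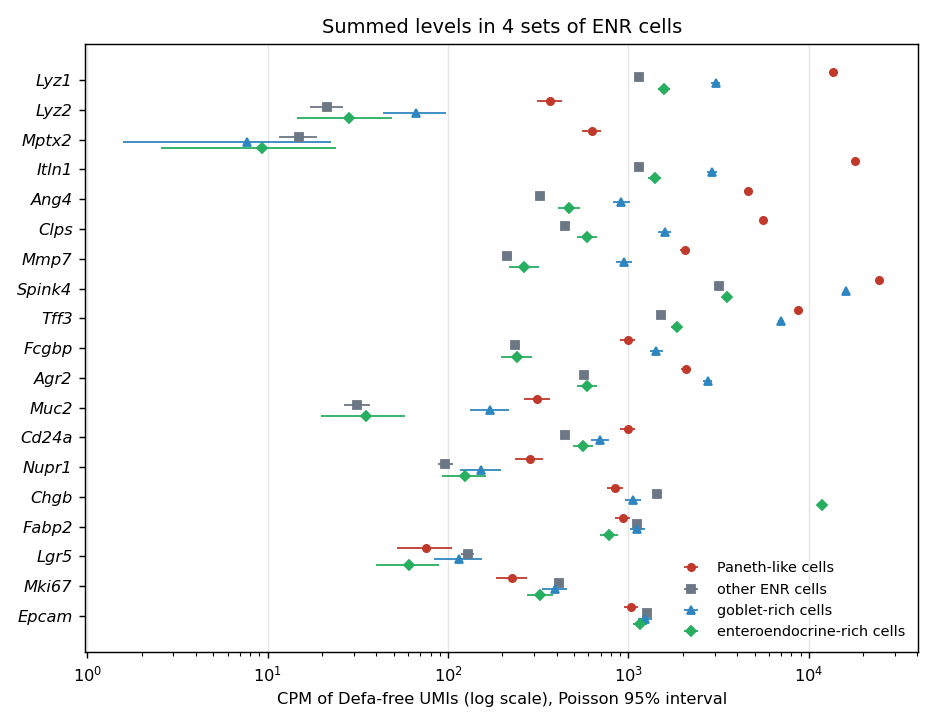
Summed levels in CPM of Defa-free UMIs (log axis) with exact Poisson 95% intervals for 19 genes in Paneth-like, other, goblet-rich and enteroendocrine-rich ENR cells. Lyz1, Itln1, Ang4 and Clps were highest in Paneth-like cells, Tff3, Fcgbp and Agr2 lay near the goblet-rich level, and Chgb was at 840 CPM against 11874 CPM in enteroendocrine-rich cells. The goblet-rich cells were chosen on a list with Tff3, Fcgbp and Agr2, and the enteroendocrine-rich cells on a list with Chgb.

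How widely members expressed a gene differed among PC products. One-cell contributions reached 454 of 5989 Lyz1 UMIs (7.58%), and 35 members held 50% of the Lyz1 UMIs, against 53 for Itln1, 47 for Clps, 26 for Ang4 and 64 for Defa24. Leaving out the 1 cell of each group with most Lyz1 UMIs gave a Lyz1 ratio of 11.3. After thinning to 500 Defa-free UMIs, Lyz1 was detected in 81.9% of members (76.8 to 86.3%), 30.4% of the other ENR cells and 30.4% of enterocyte-rich cells, which should lack it. Without thinning the shares were 91.9%, 52.8% and 53.3%, at median Defa-free depths of 1334, 1521 and 1458 UMIs. Mptx2 was detected after thinning in 5.17% of members (2.85 to 8.52%), 0.792% of other cells and 0.441% of enterocyte-rich cells, and without it in 8.86%, 1.89% and 0.881%.

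**Figure D3:**
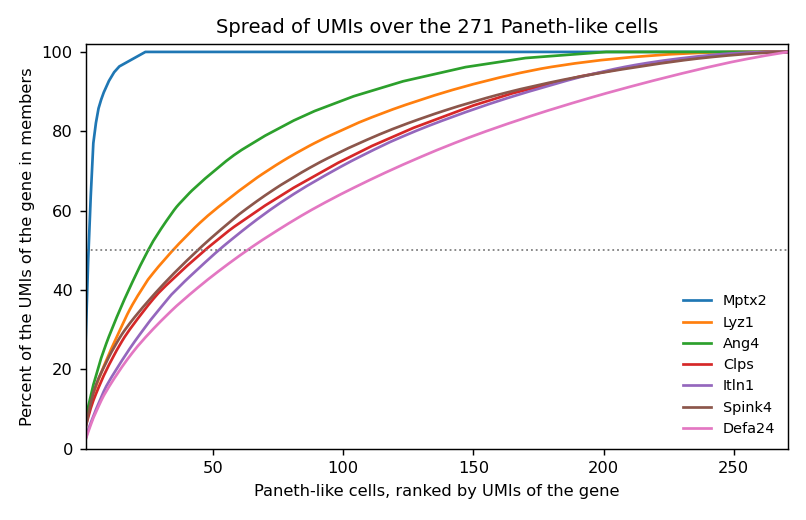
Cumulative percent of the UMIs of each gene over the 271 Paneth-like cells ranked from most to fewest UMIs, with the dotted line at 50%. The Mptx2 curve ends at 24 cells, whereas 35 cells are needed for 50% of Lyz1 and 64 for 50% of Defa24.

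Cells ranked by other PC genes were often, but not always, the same cells. Of the 271 ENR cells with the highest Itln1 share, 200 (73.8%) were members, compared with 162 (59.8%) for Lyz1, 145 (53.5%) for Ang4, 142 (52.4%) for Mmp7 and 125 (46.1%) for the goblet gene Tff3. The 42 measured genes of the in vivo PC list of the study that do not start with Defa, a list held here only in part, made up 14.2% of the Defa-free UMIs of a member on average, against 1.52% in the other cells. Of its 40 compared genes 34 were higher and 0 lower (median log2 ratio 3.61), but the list includes predicted alpha-defensins, of which 14 of 14 compared were higher. Neither the share nor the count is therefore independent of the rule. Gm15284 alone gave 19378 of the 438148 Defa-free UMIs of members.

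Members also held goblet cell transcripts. Of 18 goblet genes, 14 were higher in members than in the other ENR cells and 0 lower (median log2 ratio 2.40). The goblet list shares Spink4, Guca2a and Galnt12 with the secreted and processing list and Zg16 with the antimicrobial list, so these genes count in both. Muc2, the gel-forming intestinal mucin, stood at 313 against 31.3 CPM (ratio 9.996, 7.84 to 12.7). Tff3, a trefoil peptide secreted with mucus, stood at 8760 against 1512 CPM (5.79), Fcgbp, a mucus component, at 993 against 236 CPM (4.20) and Agr2, an endoplasmic reticulum protein needed for mucin folding, at 2079 against 569 CPM (3.66). Zg16 passed at a ratio of 2.97, but 10 of its 24 UMIs came from 1 member and it was no longer called without that cell. In cells thinned to 500 Defa-free UMIs, 83.0% of members held at least 2 UMIs of Muc2, Tff3, Fcgbp and Agr2 together, against 27.6% of the other cells, 89.0% of goblet-rich cells and 22.0% of enterocyte-rich cells. Goblet-rich cells were chosen on a list that holds these genes, so their value is raised by the choice.

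Set against goblet-rich cells, the 227 other ENR cells with the highest goblet share, members were again higher in antimicrobial genes, and most goblet genes were not called. Of 5654 genes compared, 44 (0.778%) were higher and 48 (0.849%) lower in members. Among the antimicrobial list 8 of 15 were higher and 1 lower, and among goblet genes 2 of 17 were higher (Klk1 and Ramp1) and 1 lower (Zg16, ratio 0.429). Lyz1 stood at 13669 against 3057 CPM (4.47), Itln1 at 17916 against 2908 CPM (6.16), Ang4 at 4597 against 914 CPM (5.03) and Mmp7 at 2052 against 950 CPM (2.16). Members and goblet-rich cells were not called apart for Tff3 (8760 against 7037 CPM, ratio 1.24, 1.19 to 1.31), Muc2 (313 against 171 CPM, 1.83, 1.35 to 2.49) or Fcgbp (993 against 1430 CPM, 0.694, 0.611 to 0.788). Goblet-rich cells were chosen on the goblet genes compared here, so their levels of these genes are raised by the choice. They are the top of a continuous score and not a cell type. Defa genes made up 3.98% of their summed UMIs, against 1.33% over all other ENR cells. The list that chose them also holds Spink4 and Ramp1, which are on the in vivo PC list of the study. The part of Paneth-like cells under the 8% rule in these ratios was not tested.

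Transcription factors of the secretory lineage gave few UMIs. Of 17 compared, 7 were higher and 0 lower than in the other ENR cells (median log2 ratio 0.66). Atoh1, which commits progenitors to the secretory lineage, had 22 UMIs in members, 50.2 against 7.10 CPM (ratio 7.07, 3.92 to 12.6). Bhlha15 (Mist1), a factor of granule-filled secretory cells, stood at 47.9 against 4.88 CPM (9.82), and Spdef, needed for goblet and PC maturation, at 57.1 against 12.2 CPM (4.68). Nupr1, a stress-responsive chromatin protein, stood at 283 against 96.5 CPM (2.93, 2.38 to 3.59). Sox9, which PCs require for their formation, was not called, at 119 against 162 CPM (0.733), and neither was the secretory stress factor Xbp1, at 226 against 156 CPM (1.45). Against goblet-rich cells only Bhlha15 of 15 compared factors was called, at 47.9 against 10.2 CPM from 21 and 4 UMIs.

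The endoplasmic reticulum list gave few calls. Of 33 folding and secretory pathway genes 5 were higher and 0 lower (median log2 ratio 0.39), and the chaperone gene Hspa5 stood at 840 against 658 CPM (1.28, not called). Of 15 niche genes compared, 3 were higher and 0 lower: the surface marker Cd24a at 988 against 447 CPM (2.21), the receptor gene Kit at 61.6 against 17.7 CPM (3.47) and Wnt3, the Wnt ligand PCs provide to stem cells, at 34.2 against 8.43 CPM from 15 UMIs (4.06, 2.08 to 7.56). The Notch ligand genes Dll1 (34.2 against 22.9 CPM) and Dll4 (20.5 against 7.10 CPM) were not called.

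Few markers of other intestinal cell types were higher in members. Of 28 EEC genes compared, 6 were lower and 1 (Pyy) higher (median log2 ratio -0.88). Cck, the cholecystokinin gene, stood at 265 against 658 CPM (0.402), and Nts, the neurotensin gene, at 20.5 against 143 CPM (0.144). Gcg, the proglucagon gene, was called at 0.470, but was not when the 1 cell of each group with most Gcg UMIs was left out. Chga and Chgb, the chromogranins that mark EECs, were not called (ratios 0.618 and 0.584). Against the 227 enteroendocrine-rich ENR cells, where 1.39% of 5954 genes were higher and 4.32% lower in members, Chgb stood at 840 against 11874 CPM (0.0707). Chgb is on the list that chose those cells, so their level is raised by the choice.

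Cell cycle and stem cell genes gave few calls. Of 29 proliferation genes only Mcm4 was lower (41.1 against 89.6 CPM, 0.458), although the list had a median log2 ratio of -0.46 against -0.22 over all genes. Mki67, a marker of dividing cells, stood at 226 against 412 CPM (0.548, not called). After thinning, 23.6% of members (18.7 to 29.1%) and 33.7% of the other cells (31.7 to 35.7%) held a UMI of Mki67, Top2a or Cdk1. None of 17 compared stem cell genes was called, with Lgr5 at 75.3 against 129 CPM (0.584, 0.398 to 0.830).

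The enterocyte gene Fabp2 stood at 931 CPM in members and 1118 CPM in the other ENR cells (0.833, not called). Detection of Fabp2 after thinning was 38.0% in members, 36.9% in the other cells and 66.1% in enterocyte-rich cells. Its detection in members was thus close to that in the other cells. Against the enterocyte-rich cells, where 2.06% of 5820 genes were higher and 4.18% lower in members, Fabp1 stood at 434 against 5632 CPM (0.0770). Fabp1 and Fabp2 are on the list that chose the enterocyte-rich cells, so their values there are raised by the choice. Epcam, expressed by all intestinal epithelial cells, stood at 1034 against 1268 CPM (0.815, not called). Of 13 compared genes on a list of regenerative epithelium 2 were lower, and of 15 dissociation stress genes Dusp1 (2.17) and Gadd45g (2.74) were higher. The 15 lowest called ratios among genes of at least 100 UMIs rested on 1 to 3 member UMIs each, apart from Nts with 9.

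Within the members, most compared PC and goblet products were higher at high than at low Defa share. Between the 104 members at 8 to 12% and the 64 at 20% or more, 50 of 2038 genes (2.45%) were higher and 104 (5.1%) lower in the second set, with a median log2 ratio of -0.40. Lyz1 stood at 8753 CPM at 8 to 12%, 12112 CPM at 12 to 20% and 24901 CPM at 20% or more, a ratio of 2.85 (2.67 to 3.04) between the ends. Itln1 went from 10800 over 15291 to 34811 CPM (3.22), and Ang4 from 2344 over 4053 to 9452 CPM (4.03). Tff3 stood at 5610, 9503 and 12979 CPM (2.31) and Muc2 at 157, 345 and 529 CPM (3.36). Mptx2 stood at 367, 131 and 1921 CPM (5.23), and the goblet gene Fcgbp at 653, 1290 and 1077 CPM (1.65, not called), so neither rose from bin to bin. By list, 9 of 12 antimicrobial and 8 of 12 goblet genes were higher in the upper set and 0 lower.

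Of 18 proliferation genes compared between the same end bins, 4 were lower and 0 higher at 20% or more. Mki67 stood at 297, 220 and 112 CPM (0.376, 0.177 to 0.730), and Hmgb2, a chromatin protein of cycling cells, at 566, 434 and 224 CPM (0.395). Of 10 stem and progenitor genes only Olfm4, a crypt base progenitor gene, was called, and it stood at 886, 499 and 234 CPM (0.264, 0.162 to 0.411). Fabp2 (1079, 844 and 823 CPM) and Epcam (1044, 1099 and 905 CPM) were not called. Cells just outside the rule, at 7 to 8%, stood at 7162 CPM for Lyz1, 7136 CPM for Itln1 and 390 CPM for Mki67, and those just inside, at 8 to 9%, at 8403, 7769 and 223 CPM. Gene number fell along the bins, with 339 genes at 8 to 12% and 293 at 20% or more per 500 Defa-free UMIs. Its part in these differences was not tested.

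**Figure D4:**
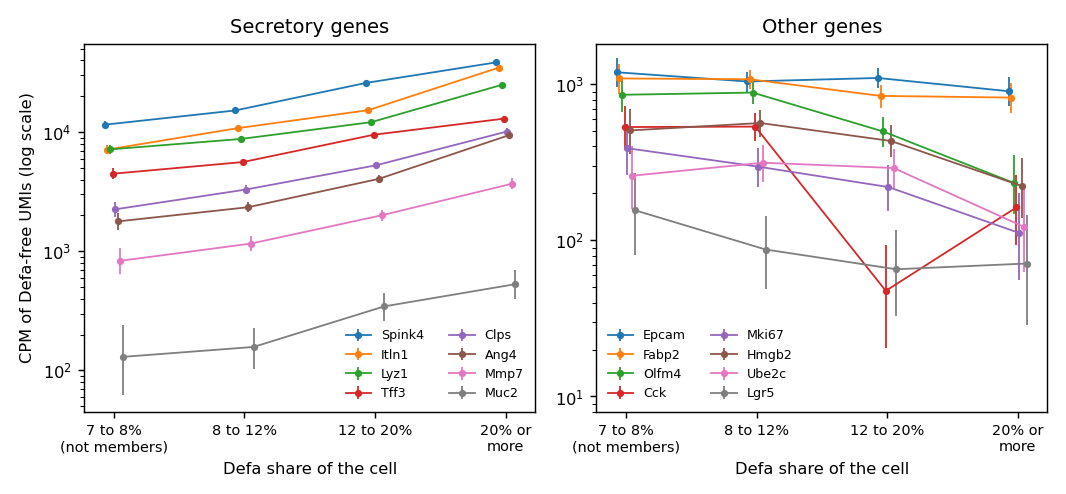
Summed levels in CPM of Defa-free UMIs (log axes) with exact Poisson 95% intervals in ENR cells at 7 to 8% Defa, which are not members, and in the 3 bins of members. Lyz1 reached 24901 CPM and Itln1 34811 CPM in the top bin, where Olfm4 stood at 234 CPM and Mki67 at 112 CPM.

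The same rule applied to the other libraries gave 1443 of 2383 kept ENR+CD cells (60.6%, 58.6 to 62.5%) and 10 of 985 ENR+CV cells (1.02%, 0.488 to 1.86%). With 1 array per condition, condition and array cannot be told apart. The alpha-defensin pool of ENR+CD Paneth-like cells was less dominated by Defa24 (57.8% of Defa UMIs against 68.9% in ENR members), with 4.07% for Defa3 against 0.920% and 2.18% for Defa22 against 0.772%. The 10 ENR+CV cells stood at 77742 CPM for Lyz1 (74044 to 81576).

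The comparison of Paneth-like cells of ENR+CD with those of ENR covered 9643 genes, of which 625 (6.48%) were higher in ENR+CD and 407 (4.22%) were lower, with a median log2 ratio of 0.18. The Lyz1 level was 25748 CPM in the ENR+CD cells, and its ratio to the 13669 CPM of the ENR cells, 1.88 (1.83 to 1.93), did not reach the 2-fold limit. Itln1 stood at 27963 against 17916 CPM (1.56). By list, PC genes went both ways. Of 16 antimicrobial genes compared 6 were higher in ENR+CD and 2 lower, and of 14 secreted and processing genes 1 and 3. Of 40 genes of the in vivo PC list 6 were higher and 8 lower, with a median log2 ratio of 0.086. Ang4 was higher in ENR+CD at 13481 against 4597 CPM (2.93), as were Mmp7 at 5974 against 2052 CPM (2.91) and Mptx2 at 1487 against 625 CPM (2.38). Reg3b and Reg3g, which were not called among ENR cells, were 20.7 and 10.7 times the ENR level. Mptx1 was lower, at 68.0 against 173 CPM (0.392), but 24 of its 76 UMIs in ENR members came from 1 cell and 43 from 4. Whether the call holds without that cell was not tested.

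ENR Paneth-like cells held more transcripts of several goblet and most enterocyte genes than their ENR+CD counterparts. Of 18 goblet genes 7 were lower in ENR+CD and 0 higher, among them Spink4 (7862 against 24521 CPM, 0.321), Muc2 (107 against 313 CPM, 0.342) and Klk1, a kallikrein (10.04 against 495 CPM, 0.0203). Tff3 was not called (8931 against 8760 CPM). Of 16 enterocyte genes 13 were lower and 1 higher, with Fabp2 at 82.6 against 931 CPM. Of 18 stem cell genes 5 were higher in ENR+CD and 2 lower, with Olfm4 at 2.74 against 591 CPM from 6 and 259 UMIs. In the other direction, 18 of 27 EEC genes, 8 of 20 Wnt targets and 9 of 15 regenerative genes were higher in ENR+CD. Of 15 dissociation stress genes 6 were also higher and 0 lower. Chgb stood at 2575 against 840 CPM (3.07) and the Wnt target Axin2 at 151 against 70.8 CPM (2.13). Among ENR cells, 0 of 18 enterocyte and 0 of 17 stem cell genes were higher in members than in the other cells. The Fabp2 and Olfm4 levels of ENR members were thus not particular to members, and the part of free RNA was not tested.

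Several of the differences between ENR+CD and ENR Paneth-like cells were also seen at matched Defa share. In the bins 8 to 12%, 12 to 20% and 20% or more, the ENR+CD to ENR ratio of Ang4 was 3.27, 3.09 and 2.64, that of Mmp7 3.65, 2.92 and 2.45 and that of Spink4 0.322, 0.278 and 0.368, all called. Lyz1 ratios were 1.70, 1.94 and 1.94 and none was called. Clps was called lower in ENR+CD in the lower bins (0.497 and 0.483) and not called in the top bin (0.527). Chgb was called higher in the lower bins (4.51 and 2.88) but not in the top bin (1.44, 1.15 to 1.82), where ENR+CD cells stood at 1287 CPM and ENR cells at 894 CPM. Axin2 was called only at 8 to 12% (2.19) and not in the upper bins (1.74 and 3.83). The dissociation stress gene Atf3 was called higher in all 3 bins (2.41, 4.15 and 3.88). Mptx2 was called in the lower bins (2.67 and 12.8) and not in the top bin (0.962), but its ENR level rested on 6, 7 and 11 cells in the 3 bins, and 58 of the 63 UMIs at 8 to 12% came from 1 cell. Without the 1 cell of each library and bin with most Mptx2 UMIs, an alternative added after seeing the data, the ratios were 31.2, 21.5 and 1.41, with the same calls.

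**Figure D5:**
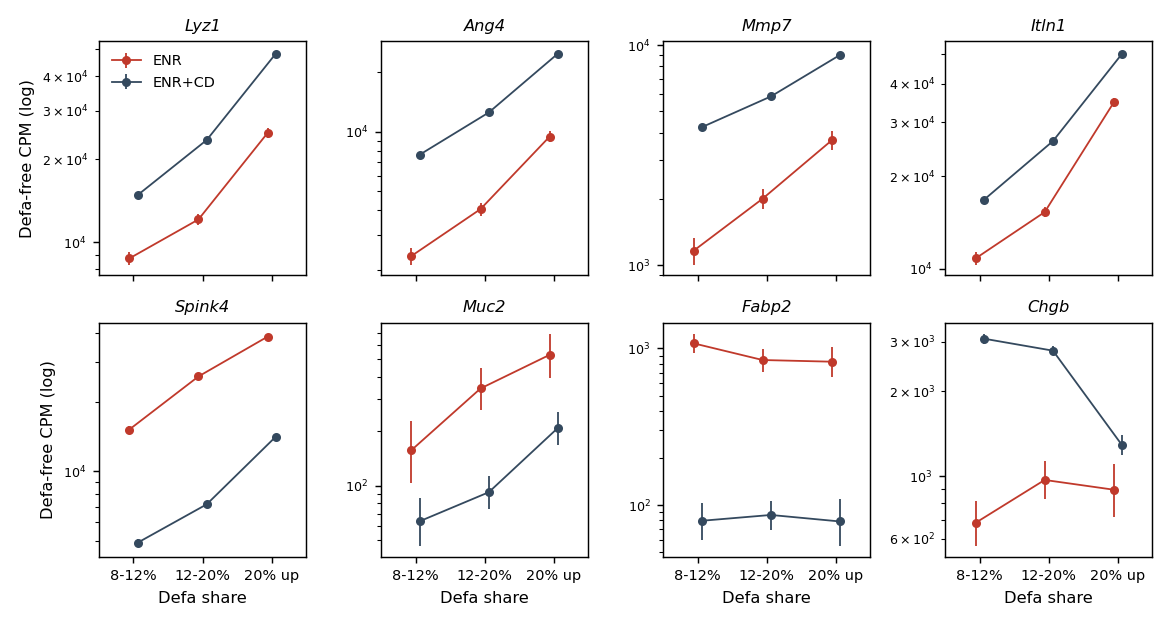
Summed levels in CPM of Defa-free UMIs (log axes) with exact Poisson 95% intervals of 8 genes in Paneth-like cells of ENR (red) and ENR+CD (dark blue) at matched Defa share. Ang4 and Mmp7 were higher and Spink4, Muc2 and Fabp2 lower in ENR+CD in each of the 3 bins. The Chgb levels lay closer in the top bin (1287 against 894 CPM), though with separate intervals.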

How the data were processed

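ENR, ENR+CD and ENR+CV organoids gave 1 Seq-Well library each at day 6. The authors demultiplexed the libraries with bcl2fastq and aligned reads to mm10 (STAR and Seurat are named in the submitters' notes), and collapsed them on cell barcode and UMI. Tool versions are not stated, and the annotation is not given in the sources used here. Deposited files are of 2 kinds: the merged table holds raw UMI counts per gene and cell, and the tables per library hold raw UMI counts and read counts. Merged cells were traced to the library tables: all 2651 ENR cells were found in the ENR table, whereas ENR+CD cells were found in the table of the ENR+CV sample and the reverse, so conditions follow the merged names.

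Cells of at least 1000 and fewer than 8000 UMIs and at least 400 genes were kept. UMIs were summed over cells after removing Defa genes and scaled to 1000000. Levels have exact Poisson, ratios exact binomial and shares Clopper-Pearson 95% intervals. For shares of cells with a UMI, cells were thinned to 500 UMIs (seed 11). Goblet-rich, enteroendocrine-rich and enterocyte-rich cells are the 10% of other ENR cells with the highest share of each marker list. Doublets were scored with Scrublet (scanpy 1.11.5, expected rate 6%) and were not removed from the values given. Of 23271 gene symbols 93.5% are in GENCODE vM21 (GRCm38), whose transcripts gave the shared 50-base windows. Promoters are from RefSeq. Figures were drawn with matplotlib 3.10.9, and intervals came from SciPy 1.17.1 with NumPy 2.4.6 in Python 3.11.15. The calling step was tested on simulated Poisson counts with known changes. These had no spread between cells, so the test does not cover genes whose UMIs lie in few cells.

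Named genes are the PC markers, Defa genes of at least 100 UMIs in members (1 is not reported here), the 15 largest called ratios each way of at least 100 UMIs, the 4 genes of each list with most UMIs and a set of PC and lineage genes. Other genes named belong to the lists and were chosen after their values were seen. The members and lists were chosen with earlier results of these data known. Alternatives changed the Defa threshold, the cell limits, the scaling, the fold and UMI limits and the reference cells.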

Additional observations from a re-analysis of the deposited data

Results flagged for a closer look

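Barcodes and cells outside the depth limits also carried alpha-defensins. Of 3345 ENR barcodes under 1000 UMIs, 256 (7.65%) had at least 8% Defa UMIs, and these stood at 10949 CPM for Lyz1 against 1241 CPM in the rest of those barcodes, a ratio of 8.82 (8.29 to 9.39). Of 82 ENR cells with 8000 or more UMIs, 10 had at least 8% Defa and stood at 37367 CPM for Lyz1, with up to 978 Lyz1 UMIs in 1 cell. Of 24 ENR cells with fewer than 400 genes, 11 had at least 8% Defa and stood at 26994 CPM for Lyz1. These cells were left out of the members and drew attention because they lie outside the cells compared above. Their levels are values only, and no difference was tested.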

How the results depend on the processing

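No paired analysis was possible because each condition has 1 library. The share of Paneth-like cells was 10.6% at 8% Defa, 18.0% at 5%, 6.56% at 12%, 2.51% at 20% and 14.1% with predicted alpha-defensins counted. The 156 higher genes became 100 at 3-fold and 93 at 100 UMIs in the pair. The 206 lower genes depended more on the settings. They numbered 108 at 5% Defa, 348 at 20%, 91 with predicted alpha-defensins counted, 411 at 1.5-fold and 84 at 3-fold. On all UMIs, which lowers every ratio by 1 factor, there were 576. With members chosen on a random part of the UMIs of each cell and levels from the rest, 116 genes were lower, 45 of them shared, and 123 higher, 101 shared. Leaving out, for each gene, the cell of each group with most of its UMIs, an alternative added after seeing the data, gave 114 higher genes, all among the 156, and 409 lower ones, since many lower genes have 1 member UMI. The Lyz1 ratio of 11.9 became 12.5 at 5% Defa, 13.9 at 20%, 12.6 with predicted alpha-defensins, 18.2 without cell limits, 12.4 without doublets, 10.1 on all UMIs, 30.7 against cells under 2% Defa, 10.4 as a mean of cell shares, 10.5 thinned and 11.3 without the top cells. Of 29 named genes called higher, 29 stayed above 1 under each alternative with values for them, apart from 28 at 20% Defa, where Zg16 was at 0.465. With predicted alpha-defensins counted, only 17 of the 29 had values, and 17 stayed above 1. The rest of the 29 are predicted alpha-defensins, which are not independent of the choice of cells by Defa share. Where a group had 0 UMIs no ratio was formed. Scrublet called 3 of 2545 cells and no member, too few to have worked, so the 5% of highest scores were left out instead, with 1 member among them. Depth limits genes of few UMIs, such as Wnt3 and Atoh1.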
